A study of Mus musculus with 16 samples.

Results

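The pituitary gland joins an endocrine anterior and intermediate lobe, derived from oral ectoderm, to a posterior lobe that grows down from the floor of the diencephalon. The resident glia of the posterior lobe are the pituicytes, which surround the axon endings of hypothalamic neurons and share many genes with astrocytes and with the radial glia of the developing brain. Glia-like folliculostellate cells and Schwann cells of nerves can also carry several of these transcripts. Here 9 genes named for pituicytes and glia were examined by gene symbol, out of 16593 gene symbols on the array: the transcription factors Rax and Nkx2-1, the progenitor and radial glia genes Nes and Fabp7, the astroglial transporter Slc1a3 and water channel Aqp4, and the later glial genes Gfap, S100b and Mbp. They are read by 13 of the 25697 probes, and every one of these probes is accounted for below.

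The study measured total RNA of pituitary glands from mouse embryos at embryonic day 17.5 on Illumina bead arrays, 1 array a sample. The samples were 6 mutants, labelled Insm1 -/-, and 10 controls, labelled Insm1 +/-, so the controls also carry 1 altered Insm1 allele, and all were on a mixed C57/BL6 and 129Ola background. Insm1 encodes a zinc finger protein that regulates transcription in developing endocrine and neuronal cells, and the comparison asks which transcripts of the gland depend on it. The labels do not describe the allele, and do not say whether a sample was 1 gland or a pool, so the tests are judged against the variation among these arrays, which may be partly technical.

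Levels are log2 intensities after background correction and quantile normalisation, changes are mutant minus control, and a probe counts as above background on an array where its detection p-value is under 0.01. Such a level can be compared between samples but not between probes. Between 12928 and 13671 probes were above background on the mutant arrays and between 12892 and 14156 on the control arrays. The endocrine hormones that define the gland were present: Gh (growth hormone) and Tshb (the thyrotropin beta subunit) were above background on 10 of 10 control arrays. The Insm1 probe itself read 11.79 ± 0.23 in mutants and 11.43 ± 0.18 in controls (SD, n = 6 and n = 10). This was a called rise of 0.36 in mutants (SE 0.10, limma adjusted p = 0.0135). The place of the probe relative to the altered part of the gene is not given, so it does not check the labels. Control 10 stood apart from the other controls, with a first principal component of -2.42, which lay between the mutants (-37.54 to -24.74) and the other 9 controls (18.21 to 26.86). Both slides held both genotypes, with 4 mutants and 4 controls on slide 1 and 2 mutants and 6 controls on slide 2.

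Of the 13 probes, 8 probes of 6 genes were above background on at least 6 of the 16 arrays and were tested. Aqp4 and Slc1a3 rose in mutants, 1 of the 2 tested Mbp probes fell, and Rax, Nkx2-1, Nes and the other Mbp probe were not called. No array of either genotype gave a signal above background for Gfap, S100b or Fabp7, or for a further Mbp and a further Nkx2-1 probe. So 2 tested probes rose and 1 fell, where 14.9% of all 13813 tested probes rose and 12.9% fell (27.8% in either direction; limma, adjusted p under 0.05). Cyclic loess scaling turned the balance over all probes, with 1645 higher and 2016 lower, and kept the member counts. The RNA came from whole glands, in which fewer cells of a type and less RNA per cell cannot be told apart.

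**Figure D1:**
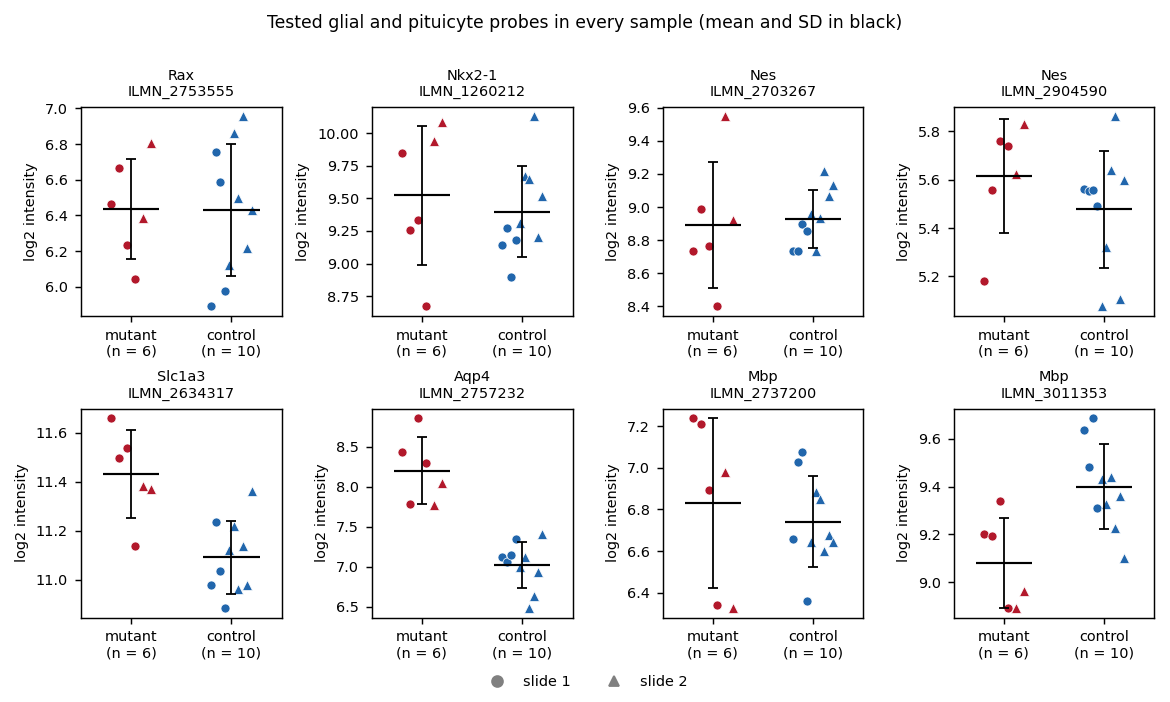
Log2 intensity of the 8 tested probes in every sample, with mutants (red) left of controls (blue), circles for slide 1, triangles for slide 2, and the mean and SD in black. The 6 mutants lie above all 10 controls for Aqp4, from 7.77 to 8.86 against 6.48 to 7.41, and the genotypes overlap in the other 7 panels.

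Rax is a homeobox factor of the eye field and ventral diencephalon that stays on in pituicytes. Its probe (ILMN_2753555) was above background on every array. The Rax level ran from 6.04 through a median of 6.42 to 6.81 in mutants and from 5.89 through 6.46 to 6.96 in controls. The range of the mutants lay wholly inside that of the controls. Rax averaged 6.43 ± 0.28 in mutants and 6.43 ± 0.37 in controls (SD, n = 6 and n = 10), a change of 0.0049 (SE 0.16, limma adjusted p = 0.987). The 95% interval of the change spanned 0.79-fold to 1.27-fold, so a change within these bounds was not detectable here.

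Nkx2-1 is a homeobox factor of the ventral forebrain, thyroid and lung, and mice need it to form the infundibulum, the stalk and source of the posterior lobe. Through the probe ILMN_1260212, the Nkx2-1 level ran from 8.67 through a median of 9.59 to 10.08 in mutants and from 8.90 through 9.29 to 10.13 in controls. The highest and the lowest array differed by more than 1 log2 unit within each genotype, and the ranges overlapped almost fully. Nkx2-1 changed by 0.13 (SE 0.20, limma adjusted p = 0.691), with a 95% interval of 0.82-fold to 1.46-fold. Levels also differed by slide: on slide 2 Nkx2-1 averaged 10.01 in mutants and 9.58 in controls, and on slide 1 it averaged 9.28 in mutants and 9.12 in controls. The second Nkx2-1 probe (ILMN_2620250) disagreed with the first in that it gave no signal, with detection p-values of at least 0.248 in mutants and at least 0.258 in controls. Both probes are annotated to the same transcript, so the gene's values here rest on a single probe.

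Rax and Nkx2-1 are both markers of the neural part of the gland, and their levels were set against each other after removing the genotype means. Over the 16 samples Pearson's r was 0.596 (permutation p = 0.0118, two-sided, adjusted p = 0.177 over 15 pairs of member genes) and Spearman's rho was 0.535 (permutation p = 0.0320, adjusted p = 0.374). The r was 0.482 without the 2 samples farthest from the median of Rax. On slide 2 alone r was 0.882 (exact permutation p = 0.00556, adjusted p = 0.0833, n = 8), and on slide 1 it was 0.275 (exact permutation p = 0.495, adjusted p = 0.705, n = 8). For these single-slide values the genotype means were taken within the slide. Nes and Nkx2-1 gave r = 0.581 (permutation p = 0.0441, adjusted p = 0.299, rho = 0.433, permutation p = 0.117, adjusted p = 0.374), which was 0.322 without the 2 extreme samples and 0.23 once slide means were removed too. Slc1a3 and Rax gave r = 0.49 (permutation p = 0.0598, adjusted p = 0.299, rho = 0.491, permutation p = 0.0657, adjusted p = 0.374). None of the 15 pairs passed after adjustment, and 2 had an unadjusted p under 0.05 by Pearson's r.

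**Figure D2:**
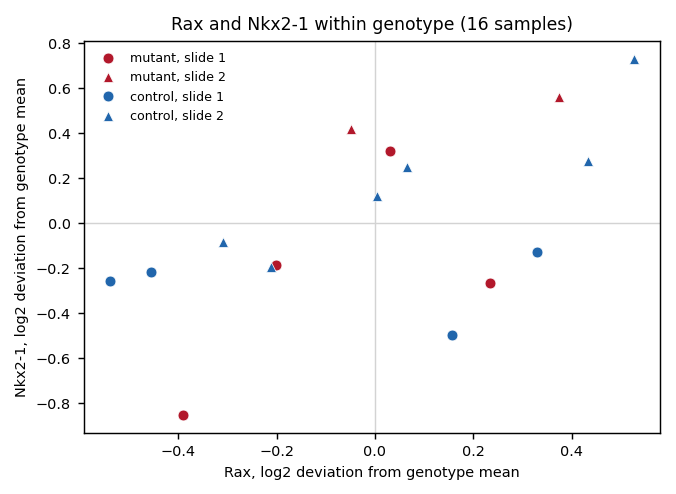
Deviation of Nkx2-1 (vertical) against that of Rax (horizontal) from the mean of the genotype, in log2 units, for 6 mutants (red) and 10 controls (blue), with circles for slide 1 and triangles for slide 2. The 8 triangles follow a line more closely than the 8 circles. With genotype means taken within each slide instead, which is not what is drawn, r was 0.882 on slide 2 and 0.275 on slide 1.

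Nes encodes nestin, an intermediate filament protein of neural progenitors that developing muscle and blood vessels also make. Through its brighter probe (ILMN_2703267), the Nes level ran from 8.40 through a median of 8.84 to 9.55 in mutants and from 8.73 through 8.92 to 9.22 in controls. Mutants held both extremes, with mutant 5 highest and mutant 4 lowest of all 16 arrays, and the SD was 0.38 in mutants and 0.17 in controls. The mean changed by -0.034 (SE 0.13, limma adjusted p = 0.878, 95% interval 0.81-fold to 1.18-fold). The change in Nes was -0.082 within slide 1 and 0.23 within slide 2, and the difference of 0.31 between slides did not pass (SE 0.22, limma adjusted p = 0.999). The second Nes probe (ILMN_2904590) was detected in 5 of the 6 mutants and 3 of the 10 controls and was not called either (change 0.14, SE 0.12, adjusted p = 0.431). The sign differed between the probes and both intervals included 0.

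Slc1a3 encodes GLAST, the glutamate transporter of radial glia and astrocytes. Its level (ILMN_2634317) ran from 11.14 through a median of 11.44 to 11.66 in mutants and from 10.88 through 11.08 to 11.36 in controls. Of the 6 mutants, 5 lay above every control, and mutant 4 lay within the control range. Slc1a3 averaged 11.43 ± 0.18 in mutants and 11.09 ± 0.15 in controls (SD, n = 6 and n = 10). The rise was 0.34 (SE 0.087, limma adjusted p = 0.00639) or 1.27-fold. A slide term in the model gave a rise of 0.35 (adjusted p = 0.00759). Within single slides it missed the threshold: slide 1 gave 0.43 (adjusted p = 0.0532), and slide 2, with 2 mutants, gave 0.25 (adjusted p = 0.270). The highest control was control 10 (11.36), and without it the rise was 0.37 (adjusted p = 0.00261).

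The promoters of Slc1a3, the called member with a promoter in the table used, and of Fabp7 and S100b, glial genes that gave no signal in the same glands, are shown as examples of glial genes with and without a signal. Promoter sequences were found for 6 of the 9 members in RefSeq (GRCm38.p6), from 250 bases before the start of the gene to 50 after it, read 5′ to 3′ on the strand of the gene. Slc1a3 lies on the minus strand at chr15:8710758-8711057, Fabp7 on the plus strand at chr10:57784673-57784972 and S100b on the plus strand at chr10:76253586-76253885. Capitals mark matches on either strand to 4 motifs: the half-site of NFI glial factors (TTGGC), the core of the Notch effector RBPJ (TGGGAA), SOX motifs (ACAAAG or ACAATG) and an NKX2-1 motif (CAAGTG).
Slc1a3: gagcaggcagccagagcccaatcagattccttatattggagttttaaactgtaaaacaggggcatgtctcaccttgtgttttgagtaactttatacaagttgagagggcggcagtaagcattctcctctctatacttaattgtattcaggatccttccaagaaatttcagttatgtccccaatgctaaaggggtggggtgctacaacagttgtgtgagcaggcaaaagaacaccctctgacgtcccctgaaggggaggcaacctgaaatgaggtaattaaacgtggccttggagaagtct
Fabp7: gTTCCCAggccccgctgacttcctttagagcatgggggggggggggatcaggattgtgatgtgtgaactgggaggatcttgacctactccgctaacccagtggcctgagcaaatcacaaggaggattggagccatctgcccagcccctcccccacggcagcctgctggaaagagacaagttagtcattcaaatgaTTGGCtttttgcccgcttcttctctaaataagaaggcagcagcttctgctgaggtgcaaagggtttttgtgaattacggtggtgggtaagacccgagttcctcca
S100b: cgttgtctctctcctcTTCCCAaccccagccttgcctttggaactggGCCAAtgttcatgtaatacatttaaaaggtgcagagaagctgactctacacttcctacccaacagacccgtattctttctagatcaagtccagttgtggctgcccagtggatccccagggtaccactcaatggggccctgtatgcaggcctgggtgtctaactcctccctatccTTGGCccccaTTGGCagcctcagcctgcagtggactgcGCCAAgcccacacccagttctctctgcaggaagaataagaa
These letters held no match in the Slc1a3 window, 1 NFI half-site and 1 RBPJ core in Fabp7, and 4 NFI half-sites and 1 RBPJ core in S100b, and no match overlapped another. Of the members' promoters not printed, that of Nkx2-1, which had a signal, held 2 NFI half-sites, that of Nes, also with a signal, held no match, and that of Gfap, which had no signal, held 1 RBPJ core and no NFI half-site. The NFI half-site thus occurred in members with and without a signal. The RBPJ core was matched in Fabp7, S100b and Gfap, without a signal, and not in Slc1a3, Nes or Nkx2-1, with a signal. These are only 6 promoters, and a link between matches and signal was not tested. Of 32851 promoters of this length, 46.7% held the NFI half-site, 25.6% the RBPJ core, 28.6% a SOX motif and 13.6% the NKX2-1 motif. A match is a string of letters and not a bound site.

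Aqp4 encodes the water channel of astrocyte endfeet, which is also made by pituicytes and, in mouse, by skeletal muscle fibres. Its level (ILMN_2757232) ran from 7.77 through a median of 8.17 to 8.86 in mutants and from 6.48 through 7.09 to 7.41 in controls. Every mutant lay above every control, which 3.42% of all tested probes did in this direction. Aqp4 averaged 8.20 ± 0.42 in mutants and 7.02 ± 0.29 in controls (SD, n = 6 and n = 10). The rise was 1.17 (SE 0.16, limma adjusted p = 2.54e-05) or 2.26-fold, with a 95% interval of 1.78-fold to 2.86-fold. On the deposited scale its raw intensity was 244 to 412 in mutants and 161 to 229 in controls. Aqp4 rose by 1.09 in a model with a slide term (adjusted p = 4.04e-05), by 1.18 within slide 1 and by 0.98 within slide 2.

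Skeletal muscle transcripts moved in the same samples. All 9 tested genes of a 12-gene muscle list rose, with a median of 1.84. The summed linear intensity of the 9 was 15326 to 23113 across mutants, against 1207 to 11167 across controls. Such a sum is weighted to the brightest probes, here Myl1, with a mean log2 level of 13.84 in mutants and 9.38 in controls. Actc1 and Myl1, an actin and a myosin light chain of muscle, rose by 4.79 and 4.46. Acta1 (skeletal alpha actin) rose by 1.79 and Tnnt1 (a troponin) by 1.84. The myogenic factor Myod1, above background on 6 mutant and 0 control arrays, rose at least 1.47-fold (limma adjusted p = 4.51e-08). Myod1 passed the detection filter through the mutants alone, so its p-value and its place among the 9 are no independent support. Myog, Actc1 and Myh8 of the same list were above background on 6 mutant arrays and on 1, 2 and 3 control arrays. They passed the filter mainly through the mutants, so their places among the 9 are no independent support either. Ckm, the creatine kinase of mature muscle, was above background on no array. On slide 2 alone 5 of the 9 rose. The muscle sum was highest among controls in control 10, at 11167 against at most 1485 in the other 9. Control 10 also had the highest Aqp4 of the controls, but only narrowly, at 7.41 against at most 7.35 in the other 9. Without control 10 Aqp4 rose by 1.22 (adjusted p = 1.92e-05). The part of muscle tissue in the Aqp4 difference was not tested.

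Mbp encodes myelin basic protein of oligodendrocytes and Schwann cells, and longer products of the same gene are made by other cell types. Its 3 probes disagreed. Through ILMN_3011353 the Mbp level ran from 8.89 through a median of 9.08 to 9.34 in mutants and from 9.10 through 9.40 to 9.69 in controls. Of the 6 mutants, 3 lay below every control, and 5 lay below every control except control 10 (9.10). This probe fell by 0.32 (SE 0.094, limma adjusted p = 0.0166, 0.80-fold), and by 0.35 without control 10 (adjusted p = 0.00689). It missed the threshold within either slide, where slide 1 gave -0.37 (adjusted p = 0.0761) and slide 2 gave -0.39 (adjusted p = 0.0803). A slide term in the model gave -0.38 (adjusted p = 0.00221).

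Through ILMN_2737200, which the annotation places on another Mbp transcript, the level ran from 6.33 through a median of 6.94 to 7.24 in mutants and from 6.36 through 6.67 to 7.08 in controls. Mutants held both ends of the range, and the mean changed by 0.090 (SE 0.14, limma adjusted p = 0.694, 95% interval 0.86-fold to 1.31-fold). The third Mbp probe (ILMN_3081854), annotated to the transcript of the probe that fell, was above background on no array, although control 6 came close with a detection p of 0.0113. The tables used do not say which Mbp products each probe reads.

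**Figure D3:**
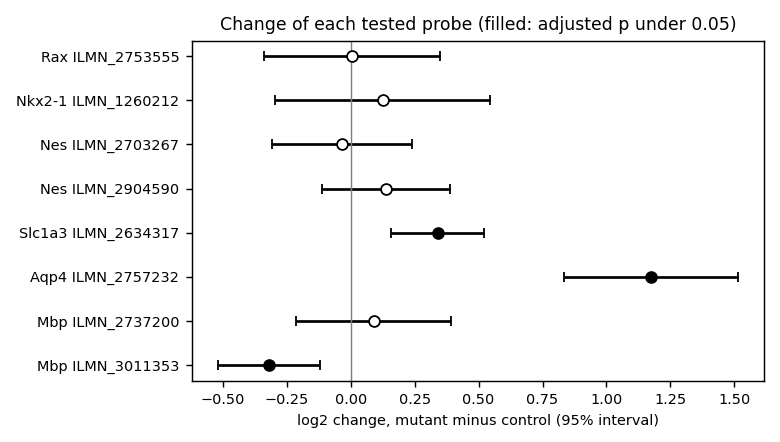
Log2 change, mutant minus control, of the 8 tested probes (horizontal), with 95% intervals from the limma fit and filled points for an adjusted p under 0.05. Aqp4 stands at 1.17, Slc1a3 at 0.34 and one Mbp probe at -0.32, and the intervals of the other 5 probes include 0.

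Gfap, the intermediate filament protein of astrocytes, gave raw intensities of 69.4 to 87.6 in mutants and 72.0 to 86.6 in controls. Its lowest detection p-value was 0.0789 in mutants and 0.153 in controls, so no array of either genotype passed the detection limit. S100b, a calcium-binding protein of astrocytes, Schwann cells and adult folliculostellate cells, gave 71.9 to 99.8 in mutants and 62.6 to 96.1 in controls. The lowest S100b detection p was 0.0313 in mutants and 0.0401 in controls. Fabp7, the brain lipid-binding protein of radial glia, gave 69.5 to 78.0 in mutants and 65.5 to 87.5 in controls, with detection p-values of at least 0.198 in mutants and 0.208 in controls. With no filter on detection all 13 member probes entered the fit and none of these was called, so a difference between genotypes was not detectable on these arrays.

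**Figure D4:**
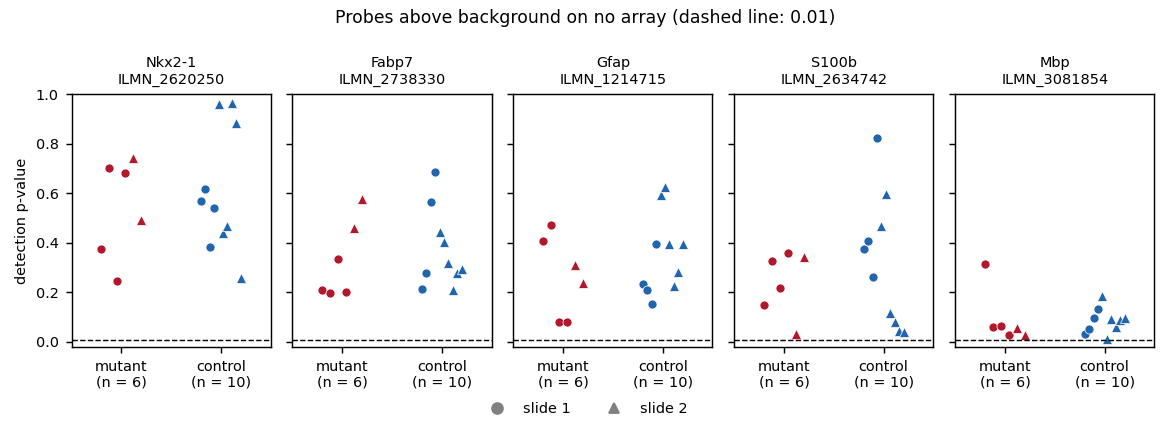
Detection p-value (vertical, linear) of the 5 member probes that were above background on no array, in 6 mutants (red) and 10 controls (blue), with circles for slide 1, triangles for slide 2 and a dashed line at 0.01. All points lie above the line, and the lowest is the Mbp probe in control 6, at 0.0113.

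Other genes of the same cell types were read from lists, with each gene represented by its brightest tested probe. Over all 9682 genes 15.9% rose and 14% fell, and the median change was 0.033. Among other pituicyte and infundibulum genes, 5 of 12 tested rose and 0 fell, with a median of 0.24, and 8 of the 20 listed were too dim to test. Fgf8, a growth factor that the infundibulum sends to the oral ectoderm, averaged 8.29 ± 0.17 in mutants and 6.88 ± 0.37 in controls (SD, n = 6 and n = 10). It rose by 1.41 (SE 0.15, limma adjusted p = 1.37e-06), and every mutant lay above every control. Tcf7l2, a Wnt pathway factor, rose by 0.70, Tbx2, a T-box factor, by 0.75 and the ligand Wnt5a by 0.35. Bmp4, Fgf10 and Otx2, which also act in the ventral diencephalon, were not called, at -0.013, 0.064 and -0.031 (named after their values had been seen). Lhx2, a pituicyte factor needed for the posterior lobe in mouse, changed by 0.10 (adjusted p = 0.681), and Col25a1 was too dim to test. Without control 10 the count was again 5 rising and 0 falling, and it was 3 on slide 1 and 2 on slide 2.

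Astrocyte and radial glia genes went both ways, with 6 of 18 tested rising and 1 falling (median 0.16). Ncan, the matrix proteoglycan neurocan, fell by 1.58 (SE 0.21, limma adjusted p = 1.53e-05) with no overlap between groups. Of all tested probes 4.79% had no overlap in this direction. Hes5, a Notch target of radial glia, rose by 0.59, the glycolytic enzyme Aldoc by 0.45 and the gliogenic factor Nfib by 0.26. The Hes5 probe was detected in 5 of the 6 mutants and 1 of the 10 controls. It therefore passed the detection filter mainly through the mutants, and its place among the 6 rising genes is no independent support. Slc1a2, the glutamate transporter of mature astrocytes, was too dim to test, and Glul, glutamine synthetase, changed by -0.37 (adjusted p = 0.217). Both without control 10 and with a slide term, 4 rose and 4 fell; cyclic loess gave 4 and 3, slide 1 alone 3 and 3, and slide 2 alone 0 and 1. Without control 10 and with a slide term, the genes that fell beside Ncan were Slc7a10, Clu and Aldh1l1, named after their values had been seen. Aldh1l1, a folate enzyme used as an astrocyte marker, changed by -0.52 through its brightest probe (adjusted p = 0.0709) and fell through the other probes, by 0.98 and 0.75.

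Of 8 tested oligodendrocyte lineage genes, 0 rose and 2 fell (median -0.023). Ugt8a, an enzyme of myelin lipid synthesis, fell by 1.71 (SE 0.12, limma adjusted p = 9.44e-09). Its groups did not overlap, as for 4.79% of all tested probes in this direction. Nkx2-2, a homeobox factor of oligodendrocyte precursors and of endocrine cells, fell by 0.66 and was detected in 1 of the 6 mutants and 8 of the 10 controls. The Nkx2-2 probe thus passed the detection filter mainly through the controls, and its place among the 2 falling genes is no independent support. Olig1 changed by -0.040 (adjusted p = 0.945), and Olig2, Mog and Mobp were above background on no array. Sox10, a factor of the whole lineage, was too dim to test. Endocrine genes fell in the same samples, all 7 of those tested. Of these, Lhb and Prl were above background on 0 and 2 mutant arrays and on 10 of 10 control arrays. Both passed the detection filter mainly through the controls, so their places among the 7 are no independent support. Gh changed by -6.75, Tshb by -4.24, Chgb (chromogranin B) by -4.80 and Cga (the shared hormone alpha subunit) by -2.91. The part of the fall in endocrine transcripts in the values of Ugt8a and Nkx2-2 was not tested. Each slide alone called 1 of the 8 oligodendrocyte genes lower.

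Of 5 tested Schwann cell and neural crest glia genes, 2 rose and 1 fell (median 0.20). Egr2, a zinc finger factor of myelinating Schwann cells, fell by 2.25 (SE 0.21, limma adjusted p = 2.09e-07), the neurotrophin receptor Ngfr rose by 0.64 and the endothelin receptor Ednrb by 0.37. Another Ednrb probe was not called (0.13, adjusted p = 0.492). Pmp22, a peripheral myelin protein, changed by 0.18 (adjusted p = 0.293). With a slide term 3 of the 5 rose and 1 fell, and on slide 2 alone 0 rose and 1 fell. Of 9 tested folliculostellate and pituitary stem cell genes, 4 rose and 0 fell (median 0.50). Hey1 and Hes1, Notch targets, rose by 1.14 and 0.55, the stem cell factor Sox9 by 0.50 and the retinoic acid enzyme Aldh1a2 by 0.54. Sox2 was not called through its brighter probe (0.54, adjusted p = 0.142) and rose through the other (0.85, adjusted p = 0.000615). In the model with a slide term the brighter Sox2 probe rose too, by 0.81 (adjusted p = 0.000245), and 6 of the 9 genes rose. The summed level of this list was 12996 to 14889 in mutants and 6695 to 11684 in controls, with control 10 highest among controls, as for muscle. Hey1 weighs most in this sum, with a mean log2 level of 13.30 in mutants and 12.16 in controls. The sum is therefore no measure of a shift of the whole list. Without control 10 again 4 rose, while slide 1 alone gave 6 and slide 2 alone 1.

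**Figure D5:**
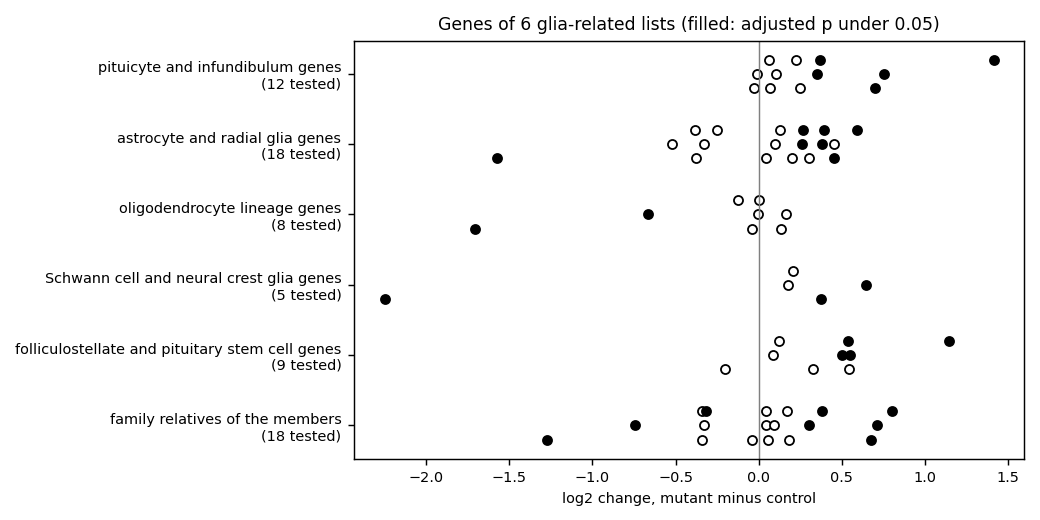
Log2 change, mutant minus control (horizontal), of every tested gene in 6 lists related to the members, with filled points for an adjusted p under 0.05. In the first list 5 of 12 genes rose and 0 fell, and the largest falls are Egr2 at -2.25, Ugt8a at -1.71 and Ncan at -1.58; vertical scatter only separates the points.

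Relatives of the members within their own gene families did not move as one. Of 18 tested, 5 rose and 3 fell (median 0.050), and without control 10 there were 5 rising and 4 falling. Slide 1 alone gave 3 and 2, and slide 2 alone 1 and 0. Among aquaporins, Aqp3 rose by 0.80 (SE 0.14, limma adjusted p = 0.000217), Aqp1 changed by 0.093 (adjusted p = 0.723) and Aqp2 was too dim to test. S100a6, a calcium-binding relative of S100b, rose by 0.71. Among intermediate filament genes, Ina, a neuronal one, fell by 1.28, and Des, the desmin gene of muscle, rose by 0.67.

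Markers of other cells that the gland or its surroundings could hold moved as follows. Of 9 tested neuron genes 0 rose and 4 fell (median -0.36), Syt1 by 0.54, Gap43 by 0.91, Elavl3 by 0.98 and Elavl4 by 0.39. Stmn2 changed by -0.36 (limma adjusted p = 0.0992), and Tubb3 was above background on no array. Slide 2 alone called 2 neuron genes lower. The summed level of the neuron list was 4379 to 5444 in mutants and 5522 to 7618 in controls, with control 10 lowest among controls. Map2 weighs most in this sum, with a mean log2 level of 10.94 in mutants and 11.18 in controls, and was not called (limma adjusted p = 0.0936). This sum, too, is no measure of a shift of the whole list. Of the hypothalamic neuropeptides 1 of 8 could be tested (Sst, -0.52, adjusted p = 0.374), Avp was too dim to test and Oxt was above background on no array. None of 7 endothelium genes was called by limma (1, Tie1, had an unadjusted p under 0.05), with Pecam1 at 0.20 and Cdh5 at 0.19. Without control 10 Tie1, an endothelial receptor, rose by 0.29 (adjusted p = 0.0313). Of 7 mesenchyme genes 1 fell, Prrx1 by 0.43, although its other probes gave 0.10 (not called) and -0.47 (called), while Col1a1 changed by 0.34 (adjusted p = 0.237) and Col1a2 by 0.50 (adjusted p = 0.154). With a slide term Col1a2 rose by 0.68 (adjusted p = 0.0218). The part of any of these cell types in the changes of the members was not tested.

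For each member the other genes with the most similar pattern were sought, as the highest Pearson's r between deviations from the genotype mean over the 16 arrays, given as a description. They were Lgr5 (0.917), Nudt7 (0.836) and Acadm (0.830) for Aqp4, and Bcl6 (0.844), Slc31a1 (0.805) and Leng1 (0.804) for Slc1a3. For the Mbp probe that fell they were Stk35 (0.920), Apbb1 (0.856) and Extl2 (0.847). For Nes they were Msrb1 (0.905), Pkn3 (0.898) and Kctd20 (0.881). For Rax they were Sult2b1 (0.856), Tmem82 (0.836) and Dll3 (0.806), and for Nkx2-1 they were Sqor (0.934), Txn1 (0.924) and Klhl13 (0.921). Of these 18 genes 0 were members and 0 stood in any of the lists.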

How the data were processed

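Trizol extraction, an RNeasy clean-up and biotin labelling of cRNA (TotalPrep kit) are recorded per the labels' protocols. The authors deposited 25697 probes, each with an average bead intensity and a detection p-value per array (per the file headers), unnormalised. The submitters' processing notes name GenomeStudio, with no version in the sources used here. A deposited table of processed intensities, with values below 0 and nearly equal medians (37.1), was used as an alternative only, as log2 with values under 16 set to 16.

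Raw intensities were background-corrected with limma's nec from the detection p-values (offset 16), scaled by quantiles and log2-transformed, using limma 3.58.1 under R 4.3.3. The 13813 probes with a detection p under 0.01 on at least 6 of 16 arrays were fitted by lmFit and eBayes with genotype as the only term, with Benjamini-Hochberg adjustment over all of them and a threshold of 0.05. A low-end filter can keep a probe through 1 genotype alone. The number of arrays limits the precision. Where a probe was above background on no array of a group, a bound is given, set by the lowest value of a detected probe on each array of that group.

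Probes were named through the platform annotation (23978 with 1 symbol, 0 with several, 1719 unnamed here). Genes are represented by their tested probe with the highest mean. Correlations used deviations from genotype means and 100000 permutations within genotype, or every arrangement within single slides. Named genes are the members, the first 2 entries of each of 12 lists with up to 4 called genes of smallest adjusted p, and the 3 most similar genes a member; others, such as markers given as too dim or undetected, were picked with their values known. Some listed genes are not reported here. The members and lists were chosen with earlier results of these data known. The scripts were tested on simulated data. Replicate numbers 1 to 6 occur in both genotypes, and a model with them as a block was an alternative.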

Additional observations from a re-analysis of the deposited data

How the results depend on the processing

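Over 29 alternatives a probe (background, scaling, deposited values, filter, variance model, array weights, slide, replicate block and single arrays left out), Aqp4 stayed a called rise, from 0.90 to 1.29. Slc1a3 ranged from 0.25 to 0.43 and the Mbp probe that fell from -0.40 to -0.28, and each missed the threshold in 2 alternatives, within slide 1 and within slide 2. No other tested member probe was called in any alternative, and the sign of Rax, the brighter Nes probe and the second Mbp probe changed in some. Leaving out single arrays gave 1.04 to 1.26 for Aqp4 (adjusted p at most 0.000128), 0.29 to 0.40 for Slc1a3 (at most 0.0201) and -0.37 to -0.28 for the Mbp probe (at most 0.0463). Within slide 1, with 8 arrays, 1 member probe was higher and 0 lower, and 1076 of all probes were higher and 1273 lower. Within slide 2, also with 8 arrays, 1 member probe was higher and 0 lower, and 341 of all probes were higher and 620 lower. The main counts were 2059 higher and 1786 lower, and cyclic loess gave 1645 higher and 2016 lower. Deviations of samples with the same number correlated from 0.0397 to 0.478 (above 0.1 in 5 of 6 pairs), and same-numbered samples lay on the same slide. The labels tie the numbers to no shared animal, litter or day and the criterion for pairing was over 0.1 in every pair, so the main model has no block; these correlations may still reflect variation shared within pairs. With the replicate number as a block (samples numbered 1 to 6) 2 member probes were higher and 1 lower, and of all probes 2110 were higher and 1879 lower, against 1604 and 1587 in the same samples without the block, a comparison added after the data were seen; the block changed no member call. The test of the difference in genotype effect between slides called 0 of 8 member probes and 0 of 13813 probes by limma, with 547 probes at an unadjusted p under 0.05, and 0 member probes under median scaling. The correlations within single slides were added after the data were seen. Gfap, S100b and Fabp7, near the bead background, were not called with no filter either (13 member probes fitted).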
